A study of Homo sapiens with 6 samples.

Results

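Heparan sulfate proteoglycans are core proteins that carry long sulfated sugar chains at the cell surface or in the matrix. The 9 genes described here encode the syndecans SDC1, SDC2, SDC3 and SDC4, which span the plasma membrane, the glypicans GPC1, GPC4 and GPC6, which are tied to it by a lipid anchor, and HSPG2 (perlecan) and AGRN (agrin), which are secreted into basement membranes and pericellular matrix. They were chosen by gene name from a count table of 21151 genes, and each of the 9 had a single row. They were compared between human dermal fibroblasts of the CCD-1064Sk line (genotype WT in the labels, shControl, 3 libraries) and cells of the same line in which a short-hairpin RNA, a transcript that directs the breakdown of a matching messenger RNA, had lowered the zinc-finger gene ZNF469 (shZNF469, 3 libraries). Both groups were grown in the same serum-containing medium, and the labels name no other treatment. The libraries of a group are described as technical replicates, so the p-values measure only the spread between these libraries. How many hairpins or independently made lines stood behind each group is not given in the sources used here.

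The sugar chain is started on serine residues of the core protein by a short linkage region, polymerised in the Golgi, and then deacetylated, epimerised and sulfated. The pattern of sulfate groups governs the binding of fibroblast growth factors, vascular endothelial growth factor, Slit proteins and chemokines, and the core protein sets where the chain is displayed. In skin fibroblasts, syndecan 4 is known as a partner of integrins in focal adhesions, and perlecan and agrin are best known from the basement membrane. The study asked how ZNF469 affects matrix production.

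Total counts per library lay between 35417366 and 48298264. ZNF469 itself was at 39.7, 46.2 and 39.9 CPM (counts scaled to library size, the edgeR unit, which takes no account of gene length) in the controls and at 21.4, 18.3 and 18.5 CPM with shZNF469. The groups did not overlap, and the gene was 2.17-fold lower (edgeR adjusted p = 0.000873). All 7 fibroblast markers were expressed, and 5 of them were not called. VIM was called higher, at 9439 to 10042 TPM (the authors' measure, corrected for library size and transcript length) in the controls and 11682 to 12287 TPM in the knockdown, and COL1A2 lower, at 8316 to 9443 and 4417 to 5069 TPM. Of 25 markers of other skin cell types, 14 were not analysed here. The summed level of the other 11 was 216 to 241 TPM in the controls and 241 to 280 TPM in the knockdown. Most of it was CD68, a lysosomal protein gene, at 171 to 193 and 202 to 244 TPM, and the endothelial gene VWF was listed at 0 in 3 of the 6 libraries. Among these 11 genes edgeR called 0 higher (1 at an unadjusted p under 0.05, and 1 with DESeq2) and 1 lower, the keratin gene KRT10, at 24.4 to 28.3 and 18.5 to 18.8 TPM. Over all tested genes the shares were 4.56% higher and 5.34% lower with edgeR, 12.1% higher at that unadjusted p, and 11.3% higher with DESeq2. Mitochondrial genes took 3.73% to 4.06% of the counts in the controls and 4.22% to 4.70% with shZNF469. EdgeR called all 8 cell cycle markers lower, against 5.34% of all tested genes, with a median log2 fold change of -1.07. These values moved with the groups, and their part in the results below was not tested.

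In GRCh38.p14 the syndecan genes lie at chr2:20200797-20225475 (SDC1), chr8:96493813-96611790 (SDC2), chr1:30869466-30909735 (SDC3) and chr20:45325288-45348424 (SDC4). The glypican genes lie at chr2:240435663-240468076 (GPC1), chrX:133300103-133415489 (GPC4) and chr13:93216529-94408020 (GPC6), and the secreted proteoglycan genes at chr1:21822244-21937310 (HSPG2) and chr1:1020120-1056116 (AGRN). Transcripts are annotated on the opposite strand within GPC1, GPC6 and HSPG2, and the strand setting of the counting is not known. Reads of those that are not listed with counts of their own cannot be told apart from those of the 3 genes. LDLRAD2, opposite HSPG2, is listed, at a mean count of 13.3, where HSPG2 had 11971 to 17515 counts per library. Genes annotated on the same strand within SDC4, GPC1 and AGRN are not listed, so their reads cannot be told apart either.

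The promoters of 7 of the 9 genes were matched in the RefSeq promoter table (GRCh38.p14), namely those of SDC1, SDC3, SDC4, GPC1, GPC4, GPC6 and HSPG2. Those of SDC3 and GPC1 are shown because these 2 genes rose in the knockdown, and that of SDC4 because it is a syndecan promoter rich in the same motif whose gene did not pass. Each is the 250 bases before the annotated start, read 5′ to 3′ on the strand of the gene, and capitals mark each GC box (GGGCGG on either strand, the motif bound by SP1 family factors). For SDC3, GPC6 and the second window of SDC1 the start in the table lies inside the annotated gene.

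GPC1, chr2:240435413-240435662, plus strand: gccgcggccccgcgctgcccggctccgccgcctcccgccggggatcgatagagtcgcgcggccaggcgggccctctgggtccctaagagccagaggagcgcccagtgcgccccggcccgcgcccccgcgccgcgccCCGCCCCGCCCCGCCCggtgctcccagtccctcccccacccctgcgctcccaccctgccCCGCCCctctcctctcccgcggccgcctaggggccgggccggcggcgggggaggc

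SDC3, chr1:30908759-30909008, minus strand: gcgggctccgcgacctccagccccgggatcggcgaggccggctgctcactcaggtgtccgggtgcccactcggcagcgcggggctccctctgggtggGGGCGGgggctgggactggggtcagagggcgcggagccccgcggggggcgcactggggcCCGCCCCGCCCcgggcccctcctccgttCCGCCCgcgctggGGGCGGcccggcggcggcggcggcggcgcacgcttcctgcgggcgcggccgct

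SDC4, chr20:45348425-45348674, minus strand: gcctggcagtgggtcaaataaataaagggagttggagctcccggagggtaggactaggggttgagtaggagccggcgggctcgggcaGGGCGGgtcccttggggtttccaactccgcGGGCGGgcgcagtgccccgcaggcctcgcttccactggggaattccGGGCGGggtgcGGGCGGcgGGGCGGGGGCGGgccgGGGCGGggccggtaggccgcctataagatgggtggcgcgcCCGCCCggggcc

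A GC box was found in 6 of the 7 genes with a promoter in the table, against 42.6% of all 35116 promoter windows of that length. Genes are counted for the 7, which have 8 windows, whereas the shares over all promoters count windows. Counting overlapping matches, the GPC1 window held 4, the SDC3 window 5 and the SDC4 window 8. HSPG2 also held 8, and GPC6, at 37.6% GC the window poorest in GC, held none. SDC1, with 2 annotated starts, has 1 in each window. GC content was 84.0% in the GPC1 window, 83.6% in the SDC3 window and 73.6% in the SDC4 window, against a median of 58.0% over all windows. A TATA box (TATAAA, either strand) was found in GPC6 alone of the 7, against 10.7% of all windows. No window held the AP-1 motif TGACTCA or the E-box CACGTG, which occur in 4.2% and 6.3% of all windows. Such a match describes letters and is not a binding site, and GC boxes were present in promoters of genes that moved and of genes that did not.

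These fibroblasts expressed all 9 genes, at widely different levels. On the length-corrected TPM scale, GPC1 and SDC4 were the most abundant in the controls, at 191 ± 11.2 and 184.8 ± 5.01 TPM (SD, n = 3), and their libraries overlapped. SDC1 followed at 115 ± 3.10, SDC3 at 105 ± 3.62, AGRN at 83.3 ± 7.91, SDC2 at 71.0 ± 3.46 and HSPG2 at 57.8 ± 6.40 TPM. AGRN and SDC2 overlapped between libraries, whereas the other neighbours in this order did not. GPC6 was far lower, at 16.2 ± 1.37 TPM, and GPC4, at 2.25 ± 0.171 TPM, was the lowest. By control mean, GPC1 stood above 96.4% and GPC4 above 40.3% of all listed genes. In the knockdown the order was the same except that SDC3, at 125 ± 10.3 TPM, came before SDC1, at 110 ± 4.48 TPM. The order depends on the transcript length assumed. With CPM divided by GENCODE 29 exon length, SDC4 came before GPC1 in the controls (207 CPM over 2613 bases, 305 CPM over 6516 bases). In the knockdown SDC1 then stayed before SDC3 (154 CPM over 3595 bases, 293 CPM over 7067 bases).

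**Figure D1:**
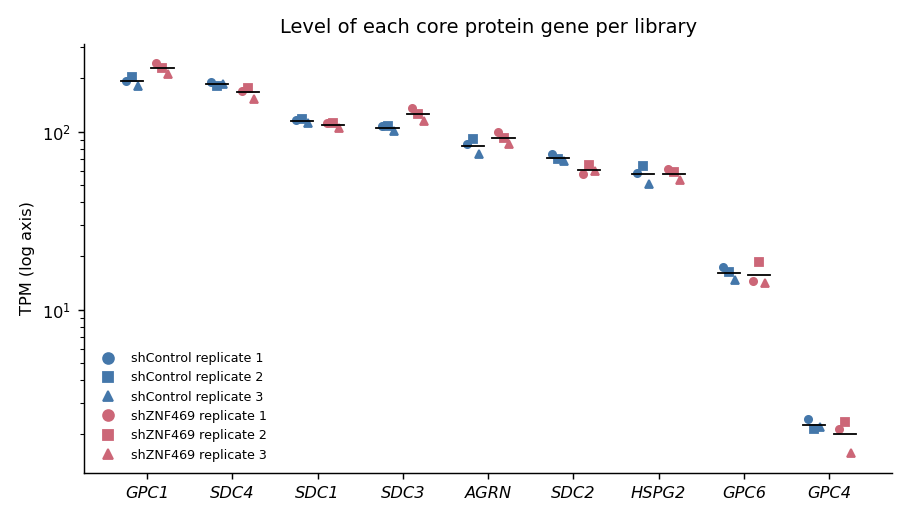
Level of the 9 core protein genes in each library, in TPM on a log axis, ordered by control mean. Points are single libraries (marker shape gives the replicate number, colour the group) and black lines are group means. GPC1 and SDC4 lead in both groups, and GPC6 and GPC4 lie well below the other 7 genes.

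Between the groups, SDC3 and GPC1 rose and SDC2 fell in the knockdown, and the other 6 genes did not pass the test. In the edgeR quasi-likelihood fit over all 16353 tested genes, with a gene called at a Benjamini-Hochberg adjusted p under 0.05, 2 of 9 were higher and 1 was lower. Over all tested genes, 4.56% were called higher, 5.34% lower and 9.9% in either direction. The median log2 fold change (shZNF469 minus shControl) was -0.02 over the 9 genes and 0.00 over all tested genes. The libraries of the groups did not overlap for 4 of the 9 genes, 2 above and 2 below the controls, where this held for 31.4% of all tested genes (15.6% above and 15.7% below). For DESeq2 the shares over all genes were 11.3% higher and 11.3% lower, and at an unadjusted p under 0.05 the edgeR shares were 12.1% and 12.3%. The 9 genes thus did not move in a common direction. In bulk RNA, a change in the number of cells that express a gene and a change per cell cannot be told apart.

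Among the syndecans, SDC3, the member best known from neural and muscle cells, was at 235, 239 and 239 CPM with shControl and at 312, 284 and 283 CPM with shZNF469. Every knockdown library lay above every control, and knockdown replicate 1 was the highest. SDC3 was 1.23-fold higher (log2 fold change 0.30, SE 0.05, edgeR adjusted p = 0.0164). SDC2, a syndecan typical of mesenchymal cells, went the other way, with 103, 97.5 and 101 CPM with shControl and 82.9, 86.9 and 86.2 CPM with shZNF469. Its groups did not overlap either, and it was 1.18-fold lower (log2 fold change -0.24, SE 0.05, edgeR adjusted p = 0.0317).

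SDC4, the focal adhesion syndecan, was at 207, 197 and 218 CPM with shControl and at 192, 188 and 184 CPM with shZNF469. All knockdown libraries lay below the controls, but edgeR did not call the difference (log2 fold change -0.14, SE 0.05, adjusted p = 0.166). DESeq2 did (adjusted p = 0.0297). Its adjusted p ran up to 0.407 over the alternative settings. SDC1, the main syndecan of epithelia, overlapped between groups, at 155, 158 and 162 CPM with shControl and 157, 149 and 156 CPM with shZNF469. The 95% confidence interval of its log2 fold change was -0.16 to 0.07 (edgeR adjusted p = 0.685).

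**Figure D2:**
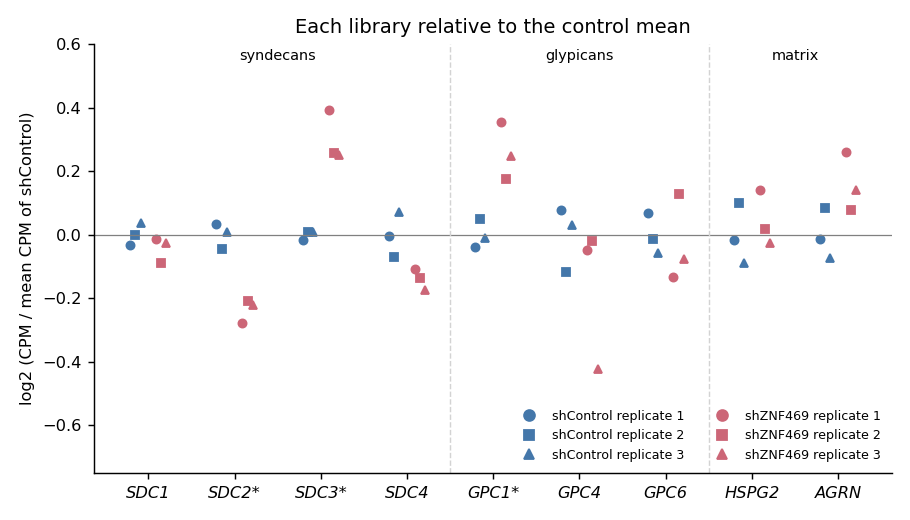
Each library's CPM of the 9 genes relative to the mean of the 3 controls, on a log2 scale. Points are single libraries, and an asterisk marks the 3 genes that passed (SDC2, SDC3 and GPC1). The knockdown libraries lie clear of the controls for these 3 and, more narrowly, for SDC4.

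With SDC3 up and SDC2 and SDC4 at lower values, the make-up of the syndecan transcripts differed between the groups while their sum overlapped. Summed syndecan TPM was 488, 475 and 465 with shControl and 474, 479 and 431 with shZNF469. SDC3 made up 21.9%, 22.6% and 21.7% of that sum in the controls and 28.5%, 26.1% and 26.6% with shZNF469. The share of SDC4 was 38.8 ± 0.881% with shControl and 36.0 ± 0.805% with shZNF469, and that of SDC2 14.9 ± 0.362% and 13.2 ± 0.908% (SD, n = 3), without overlap in either case. The share of SDC1 was 24.2 ± 0.476% and 23.8 ± 0.402% and overlapped. These shares were not tested, since 3 libraries against 3 cannot give an exact permutation p under 0.1. The shares depend on the transcript length assumed. With CPM divided by the GENCODE 29 exon length in place of TPM, the control share of SDC4 was 44.3% and that of SDC3 18.8%.

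**Figure D3:**
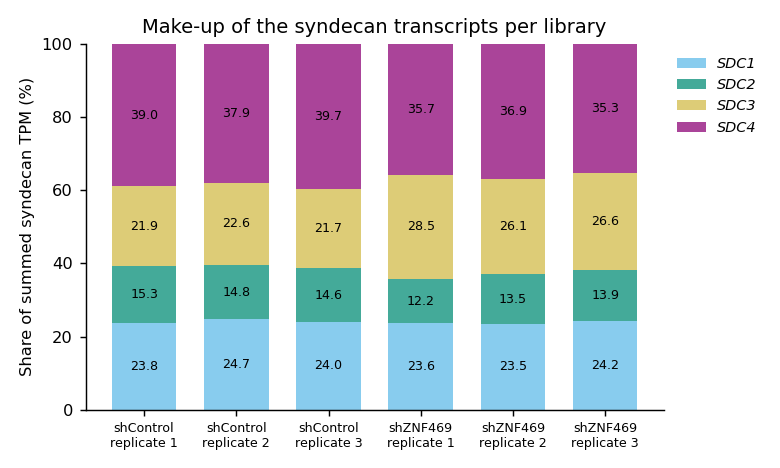
Share of each syndecan in the summed syndecan TPM of each library, in percent, as stacked bars that add up to 100. The SDC3 segment is 21.7% to 22.6% in the 3 controls and 26.1% to 28.5% in the 3 knockdown libraries.

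GPC1 carried most of the glypican signal and rose. Glypican 1 modulates responses to fibroblast growth factors and is widely expressed in mesenchymal cells. It was at 296, 315 and 302 CPM with shControl and at 389.8, 344 and 361 CPM with shZNF469, without overlap, with replicate 1 again the highest of the knockdown libraries. The gene was 1.20-fold higher (log2 fold change 0.26, SE 0.06, edgeR adjusted p = 0.0355). On the TPM scale GPC1 made up 91.2 ± 0.533% of summed glypican TPM in the controls and 92.7 ± 1.00% with shZNF469, and these shares overlapped. The summed glypican level was 212, 221 and 197 TPM in the controls and 258, 248 and 226 TPM in the knockdown.

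GPC6 and GPC4, which encode glypicans known from skeletal growth and from synapse formation, did not pass. GPC6 was at 51.6, 48.8 and 47.3 CPM with shControl and at 44.9, 53.8 and 46.7 CPM with shZNF469, so that knockdown replicate 2 lay above every control and replicates 1 and 3 below every control (edgeR log2 fold change -0.02, adjusted p = 0.907). GPC4 was at 5.05, 4.41 and 4.89 CPM with shControl and at 4.63, 4.72 and 3.57 CPM with shZNF469 (edgeR adjusted p = 0.622). With 145 to 234 counts per library GPC4 was the least precisely measured gene, and the 95% confidence interval of its log2 fold change ran from -0.50 to 0.20.

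Of the secreted proteoglycans, neither AGRN nor HSPG2 passed. AGRN, whose product clusters acetylcholine receptors at the neuromuscular junction and binds dystroglycan, was at 257, 275 and 247 CPM with shControl and at 311, 274 and 286 CPM with shZNF469. The value of knockdown replicate 2 lay below that of control replicate 2 (edgeR log2 fold change 0.16, 95% confidence interval 0.00 to 0.32, adjusted p = 0.195). HSPG2, the perlecan gene, was at 336, 364 and 320.0 CPM with shControl and at 375, 344 and 334 CPM with shZNF469 (edgeR log2 fold change 0.05, SE 0.07, adjusted p = 0.757).

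The ratio of the secreted pair varied less between libraries of a group than either gene did. The TPM of AGRN divided by that of HSPG2 was 1.45, 1.42 and 1.47 with shControl and 1.61, 1.57 and 1.59 with shZNF469, without overlap. The ratio of SDC3 to SDC4 was 0.562, 0.595 and 0.546 with shControl and 0.798, 0.709 and 0.752 with shZNF469, also without overlap. The ratio of GPC1 to GPC6 overlapped, at 11.9 ± 0.746 and 14.6 ± 2.18. These pairs were picked after the values had been seen, and no test was made of them.

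The calls of SDC3, GPC1 and SDC2 were lost when most of the libraries were left out in turn. With 5 libraries in place of 6, fewer genes were called over the whole table in most cases. The call of SDC3 was lost in 5 of 13 alternative settings, with an adjusted p up to 0.123, and those of GPC1 and SDC2 in 7 of 13 each, with adjusted p up to 0.130 and 0.158. SDC3 lost its call without shControl replicate 1, 2 or 3 (adjusted p = 0.0776, 0.0642 and 0.0697) or without shZNF469 replicate 1 (adjusted p = 0.0569). GPC1 and SDC2 lost theirs without any single library other than shZNF469 replicate 2. No sign changed for these 3 genes, and their log2 fold changes lay at 0.21 to 0.33 for SDC3, 0.21 to 0.31 for GPC1 and -0.25 to -0.21 for SDC2. Their transcripts differ in base composition, with 58.7% GC in SDC3, 66.7% in GPC1 and 43.9% in SDC2. In a fit that removes each library's trend with GC content and length, the 3 calls held, at adjusted p of 0.0165, 0.0113 and 0.0392. The log2 fold change of SDC3 went from 0.30 to 0.21, that of GPC1 from 0.26 to 0.23, and that of SDC2 stayed near -0.23. AGRN (67.5% GC) went to 0.07 and HSPG2 (64.5% GC) to -0.11. Over all genes this fit also called more, 936 higher and 1330 lower against 745 and 874 in the main fit.

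**Figure D4:**
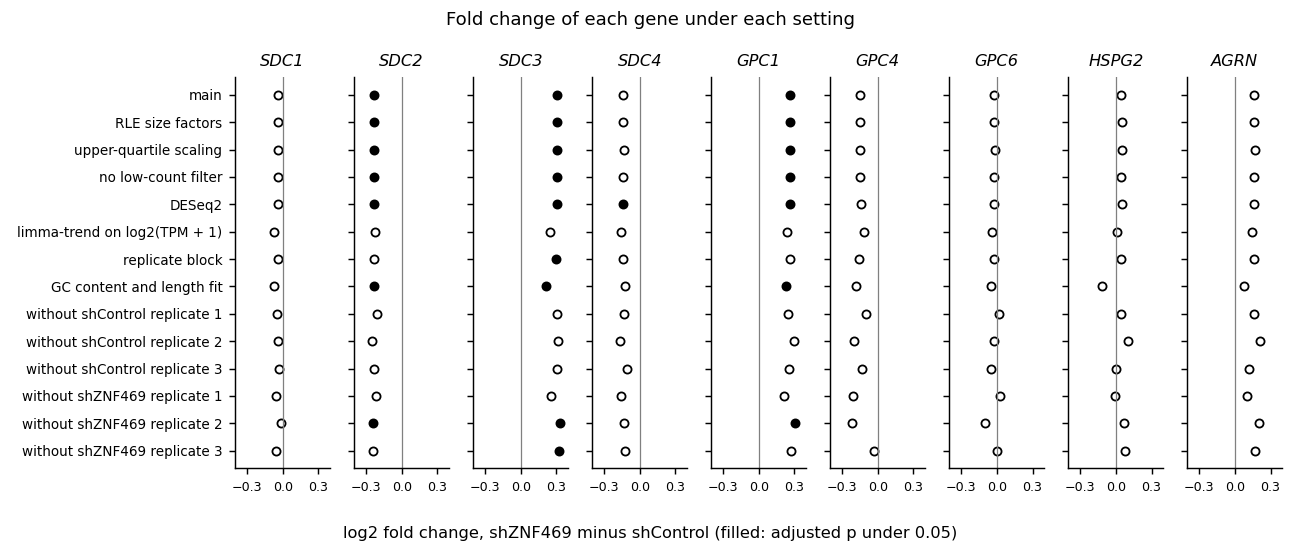
Log2 fold change (shZNF469 minus shControl) of each of the 9 genes in the main fit and under the 13 alternative settings, one row each. Filled points have an adjusted p under 0.05. SDC3, GPC1 and SDC2 stay on their side of 0 in every row but are filled in only part of them, and GPC6 and HSPG2 lie on both sides of 0.

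The profile across libraries of SDC3, the member with the lowest p, was closest to those of KANK1, MINK1 and PACS2 among 9399 named genes with a mean of 10 CPM or more. Likeness was measured as the root mean square difference of centred log2 CPM over the 6 libraries, which was 0.0193, 0.0198 and 0.0203.

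Of the 3 tested genes for other core proteins that can carry heparan sulfate, TGFBR3 (betaglycan, a TGF-beta co-receptor that can carry the chain) and COL18A1 (a basement membrane collagen with heparan sulfate chains) were higher, and GPC2 was not called. EdgeR called 4.56% of all tested genes higher. TGFBR3 was at 80.5 ± 5.37 CPM with shControl and 106 ± 5.42 CPM with shZNF469, 1.32-fold higher (edgeR adjusted p = 0.0135). COL18A1 was 1.21-fold higher (edgeR adjusted p = 0.0437). GPC2, a mainly neural glypican, was at 0.768 ± 0.581 and 1.27 ± 0.381 CPM. COL18A1 lost its call without any single library (adjusted p up to 0.151), and TGFBR3 without shControl replicate 2 or 3 or shZNF469 replicate 1 (adjusted p up to 0.0644).

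Of 37 genes that build and sulfate the chain, 28 were tested. In this list 1 gene was higher and 2 were lower, a share close to the 9.9% called over all tested genes, and the median log2 fold change was -0.02. XYLT2, which adds the first xylose of the linkage region, was 1.24-fold higher (36.1 ± 0.929 to 44.8 ± 1.75 CPM, edgeR adjusted p = 0.0146), while its paralog XYLT1 was at 36.2 ± 2.46 and 39.7 ± 0.273 CPM (adjusted p = 0.265). The chain polymerases EXT1 and EXT2 were at 297 ± 7.24 and 282 ± 3.48 CPM and at 189.6 ± 1.71 and 201 ± 7.53 CPM, with adjusted p of 0.354 and 0.343, EXT1 with every shZNF469 library below and EXT2 with every one above the controls. None of the 5 polymerisation genes passed with edgeR or DESeq2, and none had an unadjusted p under 0.05. DESeq2 called 11.3% of all genes higher and 11.3% lower, and at that unadjusted p the edgeR shares were 12.1% and 12.3%.

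Of the 28 tested synthesis genes, edgeR called 2 lower, NDST1 and PAPSS2, against 5.34% of all tested genes. NDST1, the N-deacetylase/N-sulfotransferase that starts the modification of the chain, was at 233, 233 and 226 CPM with shControl and 202, 195 and 182 CPM with shZNF469. It was 1.20-fold lower without overlap (edgeR adjusted p = 0.0273). PAPSS2, which makes the activated sulfate donor PAPS, was at 186, 183 and 180.3 CPM and at 149, 159 and 151 CPM, 1.20-fold lower (edgeR adjusted p = 0.0199). The other 8 genes for sugar and sulfate donors were not called by edgeR. NDST2, of the same family as NDST1, did not pass, at 22.7 ± 2.05 and 23.6 ± 0.239 CPM. Over all genes, edgeR called 9.9% in either direction, DESeq2 11.3% higher and 11.3% lower, and unadjusted edgeR 12.1% and 12.3%. None of the 5 tested epimerase and O-sulfotransferase genes passed with edgeR or DESeq2, and none had an unadjusted p under 0.05. Among them GLCE, the epimerase gene, was at 29.6 ± 0.822 and 30.8 ± 2.81 CPM. The calls of XYLT2, NDST1 and PAPSS2 all ended when any 1 control library or shZNF469 replicate 1 was left out, and those of NDST1 and PAPSS2 also without shZNF469 replicate 3, with adjusted p up to 0.0690 for XYLT2, 0.121 for NDST1 and 0.109 for PAPSS2.

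Among the genes that edit, cut and degrade the chain or the core, 17 of 22 were tested, and edgeR called 5 higher and 1 lower, against 4.56% and 5.34% of all tested genes. Their log2 fold changes had a median of 0.17. Whether they differed from the synthesis genes was not tested. SULF1, an extracellular sulfatase that removes 6-O-sulfate from the finished chain, fell. It was at 1841, 1823 and 1778 CPM with shControl and at 1316, 1380 and 1287 CPM with shZNF469, 1.37-fold lower (log2 fold change -0.45, SE 0.04, edgeR adjusted p = 0.00106), and passed in all 13 alternative settings. Its paralog SULF2 was at 286 ± 6.90 and 321 ± 17.3 CPM and was not called (adjusted p = 0.111), though its libraries did not overlap and DESeq2 called it higher (adjusted p = 0.00866). HPSE, the heparanase gene, was scarce, at 1.46 ± 0.291 and 1.92 ± 0.138 CPM.

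Lysosomal genes that take the chain apart lay on the higher side. Of 8 tested, edgeR called 3 higher and 0 lower, against 4.56% and 5.34% of all tested genes, and their median log2 fold change was 0.28. DESeq2 called 6 higher and 0 lower, and at an unadjusted p under 0.05 edgeR also gave 6 and 0. Over all genes DESeq2 called 11.3% higher, and 12.1% were higher at that unadjusted p. IDS, the iduronate sulfatase gene, was at 154, 160 and 156 CPM with shControl and at 212, 235 and 210 CPM with shZNF469, 1.40-fold higher (edgeR adjusted p = 0.00381). ARSG and SGSH, sulfatases of the same route, were 1.33-fold and 1.23-fold higher (adjusted p = 0.0191 and 0.0424), and NAGLU was at 78.0 ± 0.769 and 93.8 ± 8.03 CPM (adjusted p = 0.0585). The call of IDS held in all 13 settings, while leaving out any 1 control library or the first shZNF469 library ended those of ARSG and SGSH, as did leaving out the third shZNF469 library for SGSH (adjusted p up to 0.0849 for ARSG and 0.144 for SGSH). 

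Among genes for proteases that shed or cut core proteins, edgeR called 2 of 6 tested higher and 0 lower. The shares over all tested genes were 4.56% and 5.34%. MMP14, a membrane protease that cleaves syndecan 1, was at 1609, 1661 and 1605 CPM with shControl and 2181, 2001 and 2050 CPM with shZNF469 (log2 fold change 0.35, edgeR adjusted p = 0.00340). MMP2, a gelatinase activated by the MMP14 product, was 1.16-fold higher (adjusted p = 0.0341), a call that was lost without any one library other than shZNF469 replicate 2 (adjusted p up to 0.123). The sheddase gene ADAM10 was at 238 ± 12.8 and 260.1 ± 23.5 CPM (adjusted p = 0.380), and PRSS12, the neurotrypsin gene whose product cuts agrin, at 189.6 ± 10.5 and 212 ± 14.2 CPM (adjusted p = 0.200). Both of these overlapped between groups.

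**Figure D5:**
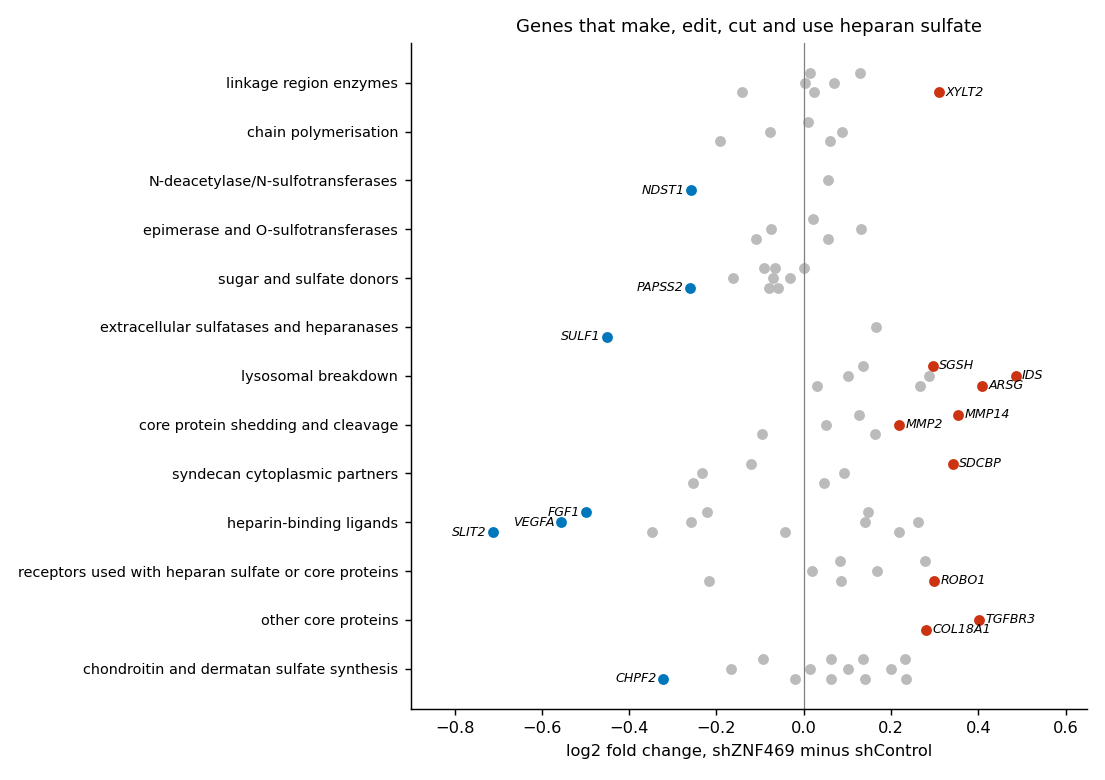
Log2 fold change (shZNF469 minus shControl) of 83 tested genes with a mean of 2 CPM or more, in 13 lists. Red points were called higher, blue points lower, and grey points were not called. SULF1, SLIT2, VEGFA and FGF1 lie lowest of the called genes and IDS, ARSG and TGFBR3 highest.

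Partners of the proteoglycans were mixed. Inside the cell, SDCBP, which encodes syntenin, the adaptor that binds the syndecan tail, was at 522, 495 and 511 CPM with shControl and at 618, 676 and 642 CPM with shZNF469. It was 1.27-fold higher (edgeR adjusted p = 0.00673) and held in all 13 settings. It was the only 1 of 7 tested cytoplasmic partners to pass with edgeR, which called 4.56% of all tested genes higher and 5.34% lower. Of these 7, DESeq2 called 1 higher and 1 lower, against 11.3% and 11.3% of all genes. GIPC1 was at 76.4 ± 3.52 and 64.1 ± 6.30 CPM without overlap (edgeR adjusted p = 0.103). PRKCA, the kinase that syndecan 4 engages, was at 111 ± 4.24 and 102 ± 6.97 CPM (edgeR adjusted p = 0.327). Of 13 alternative settings, 2 called GIPC1 lower and 1 called PRKCA lower.

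Of 12 tested ligands that bind heparan sulfate, edgeR called 3 lower and 0 higher, against 5.34% and 4.56% of all tested genes. Their log2 fold changes had a median of -0.24. DESeq2 called 5 lower and 2 higher, against 11.3% and 11.3% of all genes, and at an unadjusted p under 0.05 edgeR gave the same counts, against 12.3% and 12.1%. SLIT2, a guidance ligand, was at 66.4, 66.5 and 64.0 CPM with shControl and 39.4, 43.3 and 37.5 CPM with shZNF469, 1.64-fold lower (edgeR adjusted p = 0.00121). VEGFA, which encodes the main endothelial growth factor, was 1.47-fold lower (51.0 ± 2.96 to 34.7 ± 4.30 CPM, adjusted p = 0.0139) and FGF1, the acidic fibroblast growth factor gene, 1.41-fold lower (10.05 ± 0.897 to 7.11 ± 0.554 CPM, adjusted p = 0.0328). PTN (pleiotrophin) was at 65.5 ± 4.76 and 78.6 ± 4.30 CPM and was not called (adjusted p = 0.0648). SLIT2 passed in all 13 settings. VEGFA lost its call without shControl replicate 1 or 2 (adjusted p up to 0.0675) and FGF1 without any single library (adjusted p up to 0.114). FGF1 also lost it with the replicate number as a block (adjusted p = 0.0566).

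Of 8 tested receptors, edgeR called 1 higher and 0 lower, against 4.56% and 5.34% of all tested genes. DESeq2 called 2 higher and 1 lower, against 11.3% and 11.3% of all genes. ROBO1, the receptor of Slit ligands, was higher (1.23-fold, 65.4 ± 1.60 to 80.4 ± 5.01 CPM, edgeR adjusted p = 0.0264). ROBO1 no longer passed when any 1 control library or the first shZNF469 library was left out, and its log2 fold change, 0.30 from edgeR, was 0.09 in the limma fit of log2 TPM (adjusted p = 0.700). DAG1, the dystroglycan gene through which agrin and perlecan bind cells, was at 177 ± 5.90 and 152 ± 7.30 CPM (edgeR adjusted p = 0.0551). Its knockdown libraries all lay below the controls, and 2 of 13 alternative settings called it lower. LRP4, the agrin receptor gene, was at 11.6 ± 1.69 and 14.1 ± 1.11 CPM (adjusted p = 0.217).

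Chondroitin and dermatan sulfate, the sister chains built on the same linkage region, gave 1 lower and 0 higher among 15 tested synthesis genes with edgeR. Of all tested genes, edgeR called 5.34% lower and 4.56% higher. DESeq2 called 4 higher and 1 lower, against 11.3% and 11.3% of all genes. At an unadjusted p under 0.05 edgeR gave 4 higher and 2 lower, against 12.1% and 12.3%. CHPF2, a chondroitin polymerising factor, fell 1.25-fold, from 130.4 ± 5.13 to 104 ± 3.56 CPM (edgeR adjusted p = 0.0137), while CHPF was at 164 ± 5.05 and 192 ± 13.2 CPM (adjusted p = 0.0646). The call of CHPF2 was lost without shControl replicate 1, 2 or 3, with an adjusted p up to 0.0711. Whether heparan and chondroitin sulfate genes differed from each other was not tested.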

How the data were processed

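Sequencing libraries of 6 RNA samples were made with a NEBNext Ultra kit, as the labels' protocols state. The submitters' processing notes list GRCh38.p14, HISAT2 and StringTie. Their versions, the annotation and the strand setting are not stated there. The deposited table holds whole-number counts per gene and the TPM that the authors computed. In GENCODE 29, the only listed gene that overlaps 1 of the 9 is LDLRAD2 (opposite HSPG2, mean count 13.3). Counts were tested with edgeR 4.0.16 (R 4.3.3; filterByExpr minimum count 10, TMM scaling, two-sided quasi-likelihood F-test without covariates, Benjamini-Hochberg over 16353 genes). Intervals and standard errors come from that fit. Alternatives were DESeq2 1.42.0, RLE and upper-quartile scaling, no filter, limma 3.58.1 on log2(TPM + 1), the replicate number as a block, each library left out, and a GC content and length fit on the 15386 genes with both values (94.1%), added after seeing the data. Replicate numbers were not taken as pairs, since the deviations of same-numbered libraries correlated at -0.02, 0.08 and 0.03. The test was also run on simulated data. The 9 genes and all lists were chosen with earlier results of these data known. Genes named outside the 9 were ZNF469, the 4 with the lowest p in each list, the 3 profiles closest to SDC3, and single cell type markers.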

Additional observations from a re-analysis of the deposited data

How the results depend on the processing

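Among all genes, DESeq2 called 1638 higher and 1642 lower, the limma fit of log2 TPM 233 and 526, and the GC content and length fit 1330 lower. For the 9 proteoglycan genes the limma fit gave 0 higher and 0 lower, the replicate block 1 higher and 0 lower, and DESeq2 2 lower. The block ended the calls of GPC1 (adjusted p = 0.0669) and SDC2 (adjusted p = 0.0632) but not that of SDC3 (adjusted p = 0.0349). It also ended those of SGSH (adjusted p = 0.0858) and FGF1 (adjusted p = 0.0566), and no other named call. Not every library correlated best with the one of its own number. Synthesis genes gave 0 higher and 0 lower with limma. Turnover genes gave 9 higher with DESeq2 and 2 with limma. Partner genes gave 5 higher and 7 lower with DESeq2, 1 and 1 with limma, and 8 lower in the GC content and length fit. Chondroitin genes gave 4 higher with DESeq2 and 0 lower with limma. With single libraries left out, the counts were 204 to 769 higher and 333 to 854 lower over all genes, 0 to 2 and 0 to 1 for the 9 genes, 0 to 1 and 0 to 3 for synthesis, 2 to 8 higher for turnover, 1 to 2 and 1 to 5 for partners, and 0 to 1 and 0 to 1 for chondroitin genes. Signs turned only for genes that were not called. With libraries left out singly, the log2 fold change of GPC6 lay between -0.10 and 0.028, that of HSPG2 between -0.0065 and 0.10, that of GLCE between -0.019 and 0.092 and that of HS3ST3B1 between -0.19 and 0.022. In the GC content and length fit HSPG2 went to -0.11 and EXTL3 to -0.023, and with limma EXTL3 went to -0.13 and GLCE to -0.0050. The cause was not tested. Of the values of named genes under alternatives, 714 kept their direction and side of the threshold, 101 lost the call, 20 gained one and 10 changed sign.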
